A study of Mus musculus with 12 samples.

Results

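Adipokines are proteins that adipose tissue releases into the circulation or its surroundings, and 8 genes that encode or belong with them were followed here: *Lep*, *Adipoq*, *Retn*, *Cfd*, *Rbp4*, *Nrg4*, *Metrnl* and *Agt*. They were chosen by name, not by any measured value, and all 8 are among the 14159 genes with values. RNA-seq of polyadenylated RNA was performed on whole inguinal white adipose tissue (iWAT) of C57BL/6 mice, with 3 biological replicates in each of 4 groups. Atf4AKO mice carry floxed *Atf4* alleles and Cre recombinase under the *Adipoq* promoter, so that the transcription factor ATF4 is lost in adipocytes, and Atf4WT mice carry the floxed alleles without Cre. Mice of each genotype were kept at room temperature (RT, 22 °C) or moved to 5 °C (cold) during 24 h. The age and sex of the mice behind these libraries are not given in the labels. *Adipoq*, itself among the genes followed, supplies the promoter that drives Cre in the Atf4AKO mice. In bulk tissue, fewer cells of a type and less RNA per cell cannot be told apart.

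Leptin (*Lep*) signals fat stores to the hypothalamus, and adiponectin (*Adipoq*), the most widely used adipocyte-specific gene, acts on liver and muscle through its receptors AdipoR1 and AdipoR2. Resistin (*Retn*) is made by adipocytes in mice, and adipsin (*Cfd*) is complement factor D, the protease that starts the alternative complement pathway by cleaving factor B. Retinol-binding protein 4 (*Rbp4*) carries vitamin A in the blood, neuregulin 4 (*Nrg4*) is an ErbB4 ligand of brown and beige fat, meteorin-like (*Metrnl*) is a secreted protein linked to browning, and angiotensinogen (*Agt*) is the precursor of the angiotensin peptides. During cold exposure, noradrenaline released from sympathetic nerves stimulates lipolysis and thermogenesis in adipocytes, and white depots such as iWAT acquire beige adipocytes.

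The bases upstream of the RefSeq transcription starts (GRCm38.p6) were searched on both strands for 4 motifs, because ATF4 and C/EBP factors bind related sequences. The motifs were the ATF4 and C/EBP composite element TGATGNAA, the C/EBP motif TTGCNNAA, the cyclic AMP response element TGACGTCA and the TATA box TATAAA. Over 250 bases, *Lep*, *Agt* and *Rbp4* held a match, and the windows of *Adipoq*, *Retn*, *Cfd*, *Nrg4* and *Metrnl* held none of these letters. *Rbp4* has a pair of annotated starts, a distal one whose window lies at chr19:38125322-38125571 and a proximal one at chr19:38124812-38125061, both on the minus strand. The windows with a match are shown 5′ to 3′ with the matched bases in capitals, up to the base before the start.
Lep, chr6:29059971-29060220, plus strand: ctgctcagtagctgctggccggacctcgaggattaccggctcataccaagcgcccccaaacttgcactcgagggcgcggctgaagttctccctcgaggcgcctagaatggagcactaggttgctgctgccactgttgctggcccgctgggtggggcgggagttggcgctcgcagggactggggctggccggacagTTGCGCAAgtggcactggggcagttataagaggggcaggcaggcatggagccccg
Agt, chr8:124569707-124569956, minus strand: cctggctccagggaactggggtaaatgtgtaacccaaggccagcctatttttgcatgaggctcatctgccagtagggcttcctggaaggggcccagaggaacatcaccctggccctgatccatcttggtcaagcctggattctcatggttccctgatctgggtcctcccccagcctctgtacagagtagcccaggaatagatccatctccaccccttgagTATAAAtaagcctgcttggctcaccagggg
Rbp4, distal start: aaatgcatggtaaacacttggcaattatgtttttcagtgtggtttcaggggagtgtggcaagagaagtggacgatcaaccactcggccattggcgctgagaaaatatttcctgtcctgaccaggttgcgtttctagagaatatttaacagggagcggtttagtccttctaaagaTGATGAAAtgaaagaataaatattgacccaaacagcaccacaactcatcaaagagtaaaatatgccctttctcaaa
Rbp4, proximal start: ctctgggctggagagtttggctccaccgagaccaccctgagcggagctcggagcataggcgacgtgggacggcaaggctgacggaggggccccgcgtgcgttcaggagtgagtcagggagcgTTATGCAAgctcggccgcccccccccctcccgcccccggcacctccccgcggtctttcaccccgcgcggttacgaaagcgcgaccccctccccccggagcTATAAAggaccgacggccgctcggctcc
The *Lep* window held a C/EBP match that began 55 bases before the start. The proximal *Rbp4* window held a C/EBP match in the reverse direction, 128 bases before the start, and a TATA box 28 bases before it. The distal *Rbp4* window held a composite element 76 bases before its start, and the *Agt* window a TATA box at 30 bases. Of 32851 such windows of all genes, 3.45% held the composite element, 9.56% the C/EBP motif, 1.55% the cyclic AMP response element and 12.4% the TATA box. These matches are descriptions of the sequence and do not show binding.

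The libraries held 25719476 to 29105147 reads on the listed genes, and values are given as normalized counts, that is, reads divided by the size factor of the library. *Atf4* was between 4107 and 7644 normalized counts in the Atf4WT libraries and between 788 and 1639 in the Atf4AKO libraries. *Ucp1*, the uncoupling protein of thermogenic fat, was between 204 and 1097 at RT and between 73632 and 119560 after cold. All 10 white adipocyte markers were detected, and their summed level was 971930 to 1655500 over the 12 libraries. Markers of other cells were also present and moved with the groups. In Atf4WT mice after cold, 14 of 16 tested B cell markers and 19 of 20 tested T cell markers rose by limma (background 17.0%). Of these 36 markers edgeR called 21 and DESeq2 24. The summed B cell marker level in Atf4WT mice was 4999 to 17555 after cold against 259 to 5123 at RT. In Atf4AKO mice limma called 0 of these 36 markers (background 25.9%), with 2 at an unadjusted p under 0.05 (background 39.1%). There edgeR called 0 and DESeq2 1, and the B cell sum was 142 to 603 after cold and 302 to 862 at RT. The T cell sum was 1572 to 12307 against 448 to 1268 in Atf4WT mice, and 329 to 835 against 598 to 1448 in Atf4AKO mice. Between the genotypes after cold, limma and edgeR called 0 of the 36 markers and DESeq2 called 35. At an unadjusted p of limma under 0.05 there were 36 (background 11.7%). The median log2 fold change of Atf4AKO against Atf4WT after cold was -5.57 for B cell and -3.51 for T cell markers. Of 8 fibroblast and preadipocyte markers, 3 fell in Atf4WT and 4 in Atf4AKO mice after cold, where 14.9% and 11.0% of all tested genes fell. Their sums were 46611 to 107440 and 53338 to 92685 against 153840 to 218760 at RT. Skeletal muscle markers summed to between 72.3 and 76872, the latter in an Atf4WT library at RT. Every gene with values had at least 1 read in every library, so a listed marker could not be at 0. Of 8 epithelial markers 2 are listed, and of 8 skeletal muscle markers 5.

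To compare the genes with each other, reads were divided by exon length and scaled to the same total in every library over the 13959 genes with a length. On this scale *Cfd* was the highest of all 13959 genes in each of the 4 groups, with levels per length from 48076 ± 1582 in cold-exposed Atf4WT mice to 60801 ± 10632 in Atf4AKO mice at RT (mean ± SD, n = 3). *Adipoq* ranked 7 in both genotypes at RT, and 11 in Atf4WT and 9 in Atf4AKO mice after cold. *Retn* ranked 19, 18, 16 and 15 in the Atf4WT RT, Atf4AKO RT, Atf4WT cold and Atf4AKO cold groups. Below them came *Rbp4* (1229 ± 266 in Atf4WT mice at RT), *Lep* (916 ± 381), *Agt* (58.6 ± 6.15), *Nrg4* (54.8 ± 6.92) and *Metrnl* (40.0 ± 4.70). *Rbp4* and *Lep*, and *Agt* and *Nrg4*, were neighbours that differed by less than their spread in Atf4WT mice at RT. After cold *Adipoq* (5341 ± 330 in Atf4WT mice) and *Retn* (5015 ± 495) were no longer apart beyond their spread, while at RT they were (8521 ± 178 and 3667 ± 555). Together the 8 genes took 1.71% to 2.64% of the reads of a library, most of it *Cfd*. The exon length of *Nrg4* joins all its annotated transcripts, which lowers its level on this scale.

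**Figure D1:**
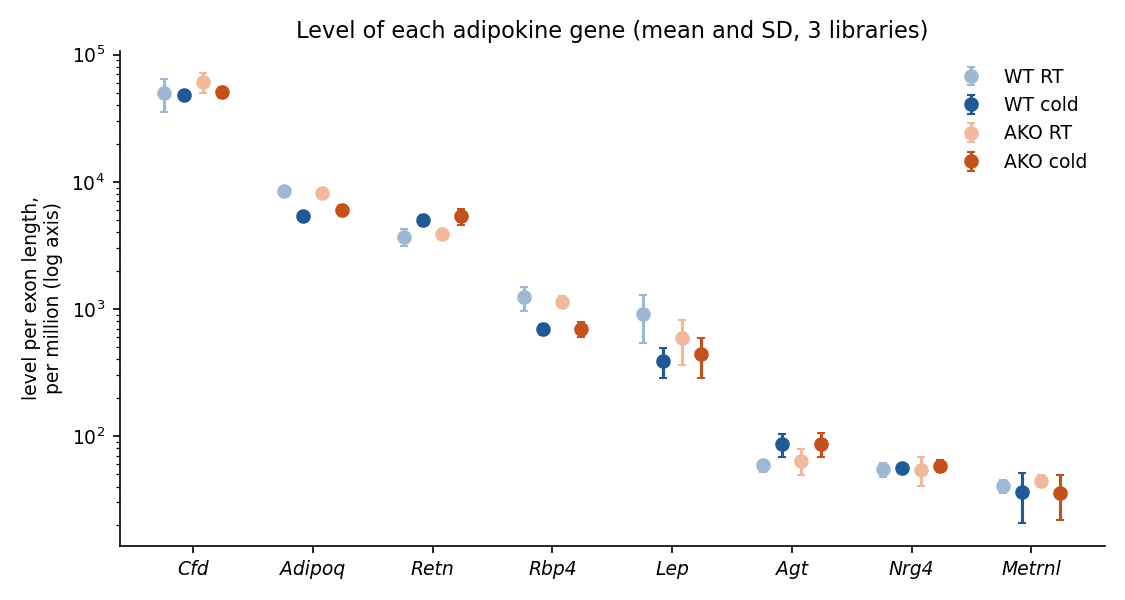
Level per exon length, scaled to the same total in every library, on a log axis for the 8 adipokine genes in the 4 groups (points are means and bars the SD of 3 libraries). *Cfd* lies highest, *Adipoq* and *Retn* approach each other after cold, and *Agt*, *Nrg4* and *Metrnl* lie lowest.

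Cold exposure lowered *Adipoq* and *Rbp4* and raised *Agt* in Atf4WT iWAT, and it lowered *Rbp4* in Atf4AKO iWAT, while *Cfd*, *Nrg4* and *Metrnl* were not called in either genotype. In Atf4WT mice 3 of the 8 genes passed limma's test at an adjusted p-value under 0.05, where 31.9% of the 13404 tested genes did. Of these, 2 fell (background 14.9%) and 1 rose (background 17.0%). In Atf4AKO mice 1 of 8 was called, where 25.9% of all tested genes were, and it fell (background 11.0% lower and 14.8% higher). At the threshold of the study, a fold change over 1.5 with an unadjusted p-value under 0.05, 4 of 8 genes passed in Atf4WT mice (background 21.2%) and 1 of 8 in Atf4AKO mice (background 17.2%). Cold and RT libraries were completely separate for 5 of 8 genes in Atf4WT mice (background 46.8%) and for 3 of 8 in Atf4AKO mice (background 41.7%). Nothing particular to these 8 genes is read from these counts, which lie on both sides of the background. The median log2 fold change of the 8 genes was -0.05 in Atf4WT and -0.24 in Atf4AKO mice, against 0.0026 and -0.03 over all tested genes.

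**Figure D2:**
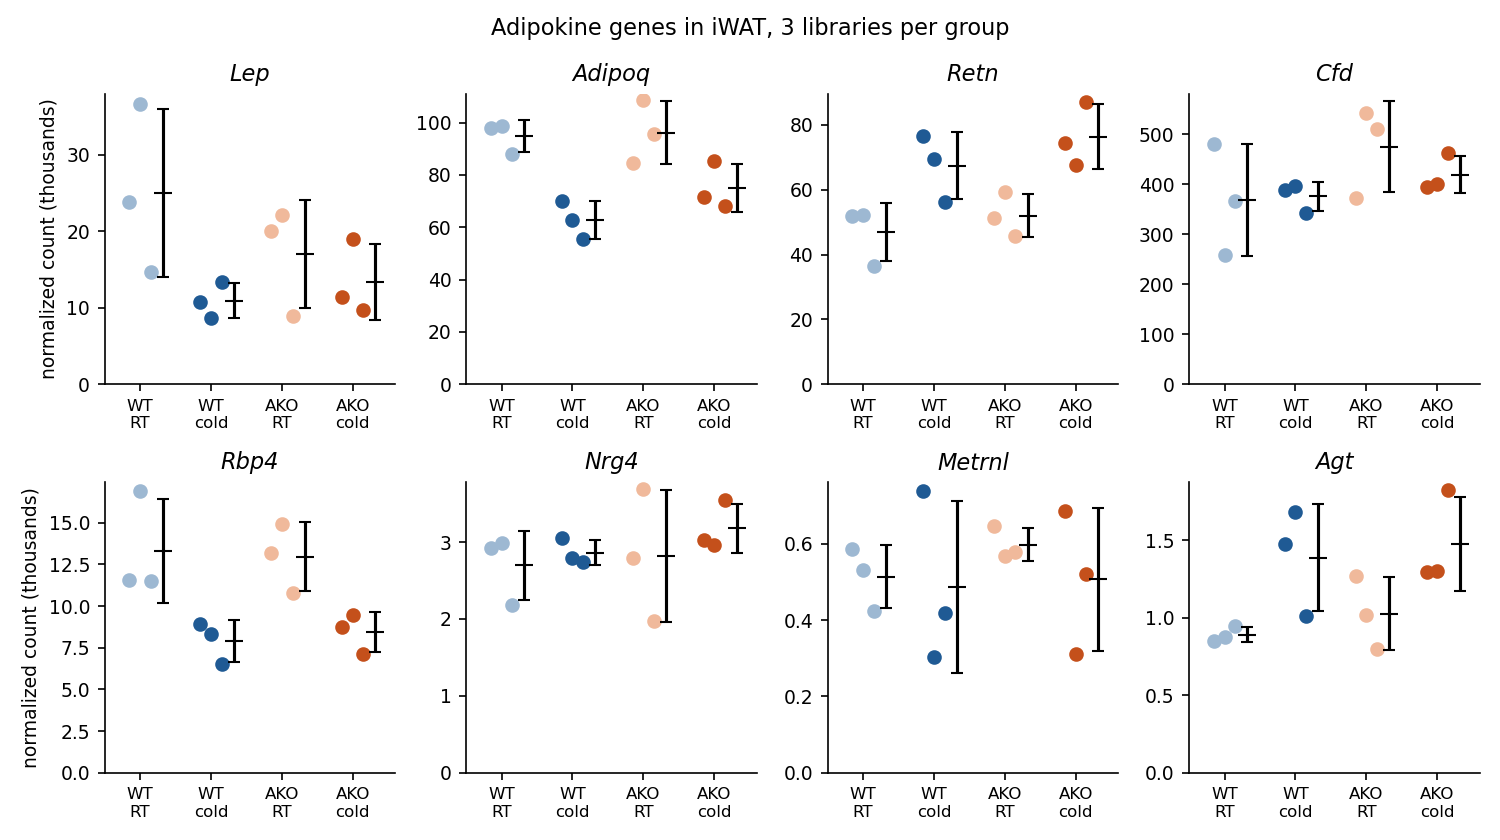
Normalized counts of the 8 adipokine genes in each of the 12 libraries, by group (points are libraries, and the black mark and bar the mean and SD of 3). *Lep*, *Adipoq* and *Rbp4* are lower and *Retn* and *Agt* higher in all cold libraries of Atf4WT mice than in all their RT libraries. The *Lep*, *Cfd* and *Metrnl* libraries of a group spread widely.

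*Adipoq* was 98068, 98864 and 87909 normalized counts in the Atf4WT libraries at RT and 69900, 62610 and 55500 after cold, with replicates named 0, 1 and 2 in this order throughout. The Atf4AKO values were 84587, 108458 and 95500 at RT and 71678, 85395 and 68025 after cold. All Atf4WT cold libraries lay below all RT libraries, whereas in Atf4AKO mice the highest cold library lay just above the lowest RT library. *Adipoq* fell 0.658-fold in Atf4WT mice (log2 fold change -0.60 ± 0.16 SE, adjusted p = 0.0148 by limma). In Atf4AKO mice its log2 fold change was -0.36 ± 0.16 with an adjusted p of 0.119 in limma, 0.0661 in edgeR and 0.0223 in DESeq2, and -0.53 with 0.0112 when libraries were set to the same adipocyte marker level. Without replicate 2 of the Atf4WT cold group, the adjusted p in Atf4WT mice was 0.0535. When the lymphocyte marker level of each library (the mean log2 level of B and T lymphocyte markers) was a covariate, the log2 fold change was -0.25 with an adjusted p of 0.469 in Atf4WT mice and -0.42 with 0.0407 in Atf4AKO mice. This level was 6.8, 8.9 and 9.3 in the Atf4WT libraries after cold and 4.0, 3.7 and 6.7 at RT. Its effect and that of cold in Atf4WT mice therefore cannot be told apart, here and wherever this covariate is used below.

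*Lep* varied most. It was 23805, 36580 and 14651 at RT and 10797, 8701 and 13311 after cold in Atf4WT mice. In Atf4AKO libraries *Lep* was 20018, 22092 and 8936 at RT and 11337, 18981 and 9704 after cold. In Atf4WT mice all cold libraries were lower than all RT libraries, and in Atf4AKO mice replicate 2 at RT lay below all cold libraries and the other RT libraries above them. The log2 fold change was -1.12 ± 0.40 (95% interval -1.99 to -0.24, adjusted p = 0.0529 by limma) in Atf4WT mice and -0.31 ± 0.40 (-1.18 to 0.57, adjusted p = 0.601) in Atf4AKO mice. The Atf4WT value passed the threshold of the study but not the adjusted one. Without replicate 2 of the Atf4AKO RT group, the Atf4AKO value was -0.72 (adjusted p = 0.193), and leaving out each other Atf4AKO library gave -0.59 to -0.07. The residual SD of *Lep* was 0.570 on the log2 scale, above that of 97.3% of 7542 well-expressed genes (averaging 500 normalized counts or more), whose median was 0.143. In Atf4WT mice the adjusted p was 0.0353 in edgeR and 0.0207 in DESeq2, and without replicate 2 of the Atf4AKO group at RT, which has the lowest *Lep* value of the RT libraries, it was 0.0272. It was 0.0236 without replicate 2 of the Atf4WT RT group and 0.0427 without replicate 1 of the Atf4AKO cold group. Leaving out each other Atf4WT library gave adjusted p-values of limma from 0.0675 to 0.189. The Atf4WT fall of *Lep* was called under 11 of 25 alternatives. With the lymphocyte covariate the Atf4WT value was -0.20 with an adjusted p of 0.855.

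*Rbp4*, the carrier of retinol, was 11552, 16924 and 11507 at RT and 8904, 8313 and 6524 after cold in Atf4WT mice. It was 13188, 14901 and 10808 at RT and 8749, 9474 and 7114 after cold in Atf4AKO mice. Every cold library was below every RT library in both genotypes. The fall was 0.599-fold in Atf4WT mice (log2 fold change -0.74 ± 0.19, adjusted p = 0.0118 by limma) and 0.652-fold in Atf4AKO mice (-0.62 ± 0.19, adjusted p = 0.0315). With the lymphocyte marker level as a covariate, the values were -0.30 (adjusted p = 0.488) in Atf4WT and -0.70 (adjusted p = 0.0125) in Atf4AKO mice. In Atf4AKO mice the adjusted p was 0.0885 without replicate 0 and 0.104 without replicate 1 of the RT group, and 0.054 without replicate 0 and 0.107 without replicate 2 of the cold group.

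*Retn*, the resistin gene, was 52006, 52272 and 36482 at RT and 76439, 69501 and 56214 after cold in Atf4WT mice. In Atf4AKO mice it was 51163, 59143 and 45831 at RT and 74373, 67598 and 87138 after cold. All cold libraries exceeded all RT libraries within each genotype. The log2 fold change was 0.53 ± 0.19 (95% interval 0.12 to 0.94) in Atf4WT mice and 0.55 ± 0.19 (0.14 to 0.97) in Atf4AKO mice, and the adjusted p-values of limma, 0.0509 and 0.0504, missed the threshold narrowly. The count tests called it in both genotypes, with adjusted p-values of 0.0391 and 0.0328 in edgeR and 0.0101 and 0.00762 in DESeq2. Without replicate 2 of the Atf4WT cold group, which has the lowest value of the cold libraries, limma called it in both genotypes too (0.0382 and 0.0448), and without replicate 2 of the Atf4WT RT group it was called in Atf4AKO mice (0.0321). With the lymphocyte covariate the values were 1.05 (adjusted p = 0.0159) in Atf4WT and 0.46 (adjusted p = 0.0422) in Atf4AKO mice. *Retn* was called under only 9 of 25 alternatives in each genotype. Its adjusted p over the alternatives reached 0.171 in Atf4WT and 0.148 in Atf4AKO mice.

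*Agt*, the source of angiotensin, was 852, 875 and 947 at RT and 1473, 1680 and 1010 after cold in Atf4WT mice. It was 1268, 1015 and 795 at RT and 1296, 1304 and 1823 after cold in Atf4AKO mice. The cold libraries exceeded the RT libraries in both genotypes, by a small margin for the lowest cold library. *Agt* rose 1.52-fold in Atf4WT mice (log2 fold change 0.61 ± 0.21, adjusted p = 0.0471 by limma), and its value in Atf4AKO mice was 0.53 ± 0.21 (adjusted p = 0.0868). The Atf4WT call was lost without any of the Atf4WT libraries except replicate 2 of the cold group, with adjusted p-values from 0.0715 to 0.164. It was also lost without replicate 1 of the Atf4AKO RT group (0.0624) or replicate 0 (0.0545) or 1 (0.0507) of the Atf4AKO cold group. The adjusted p was 0.0503 when libraries were set to the same 75th percentile and 0.068 at the same adipocyte marker level. With the lymphocyte covariate the value was 0.69 with an adjusted p of 0.242. In Atf4AKO mice *Agt* was called without replicate 2 of the Atf4WT cold group (0.0489).

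*Cfd*, by far the most abundant of the genes, was 481941, 258547 and 367035 at RT and 388748, 395934 and 343343 after cold in Atf4WT mice. The Atf4AKO libraries gave 372771, 543199 and 511749 at RT and 395248, 401268 and 462382 after cold. The RT libraries spread on either side of the cold libraries in Atf4WT mice and overlapped with them in Atf4AKO mice. The log2 fold change was 0.07 ± 0.32 (95% interval -0.62 to 0.76, adjusted p = 0.89 by limma) in Atf4WT and -0.17 ± 0.32 (-0.86 to 0.53, adjusted p = 0.729) in Atf4AKO mice, and changes within these bounds were not detectable.

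*Nrg4*, which signals through ErbB4, was 2928, 2987 and 2175 at RT and 3053, 2794 and 2744 after cold in Atf4WT mice, and 2794, 3694 and 1974 against 3031, 2957 and 3541 in Atf4AKO mice. Its log2 fold change was 0.10 ± 0.20 (95% interval -0.33 to 0.53) in Atf4WT and 0.21 ± 0.20 (-0.22 to 0.64) in Atf4AKO mice. Exons of *Nrg4* overlap those of *Fbxo22* on the opposite strand, and the strand setting of the counting is not stated. *Metrnl*, the lowest of the genes, was 586, 531 and 424 at RT and 738, 303 and 417 after cold in Atf4WT mice. In Atf4AKO mice it was 647, 568 and 578 at RT and 687, 311 and 521 after cold. The cold libraries of *Metrnl* lay both above and below the RT libraries in each genotype, and replicate 1 was lowest of the cold libraries in both. Its log2 fold change was -0.17 ± 0.32 (95% interval -0.87 to 0.54) and -0.31 ± 0.32 (-1.02 to 0.40), and neither gene was called by limma, edgeR or DESeq2.

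Averaged over the genotypes, a contrast added after the values had been seen, 4 of the 8 genes were called by limma, where 44.8% of all tested genes were. *Rbp4* (log2 fold change -0.68 ± 0.13, adjusted p = 0.0017) and *Adipoq* (-0.48 ± 0.11, adjusted p = 0.00511) fell, with a background of 21.8% lower genes. *Retn* (0.54 ± 0.13, adjusted p = 0.00673) and *Agt* (0.57 ± 0.15, adjusted p = 0.00966) rose, with a background of 23.0% higher genes. The highest adjusted p over 24 alternatives was 0.0416 for *Adipoq*, 0.0178 for *Retn*, 0.0204 for *Rbp4* and 0.0335 for *Agt*. *Lep* had a value of -0.71 ± 0.28 (adjusted p = 0.0601), with 0.00616 to 0.425 over the alternatives.

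**Figure D3:**
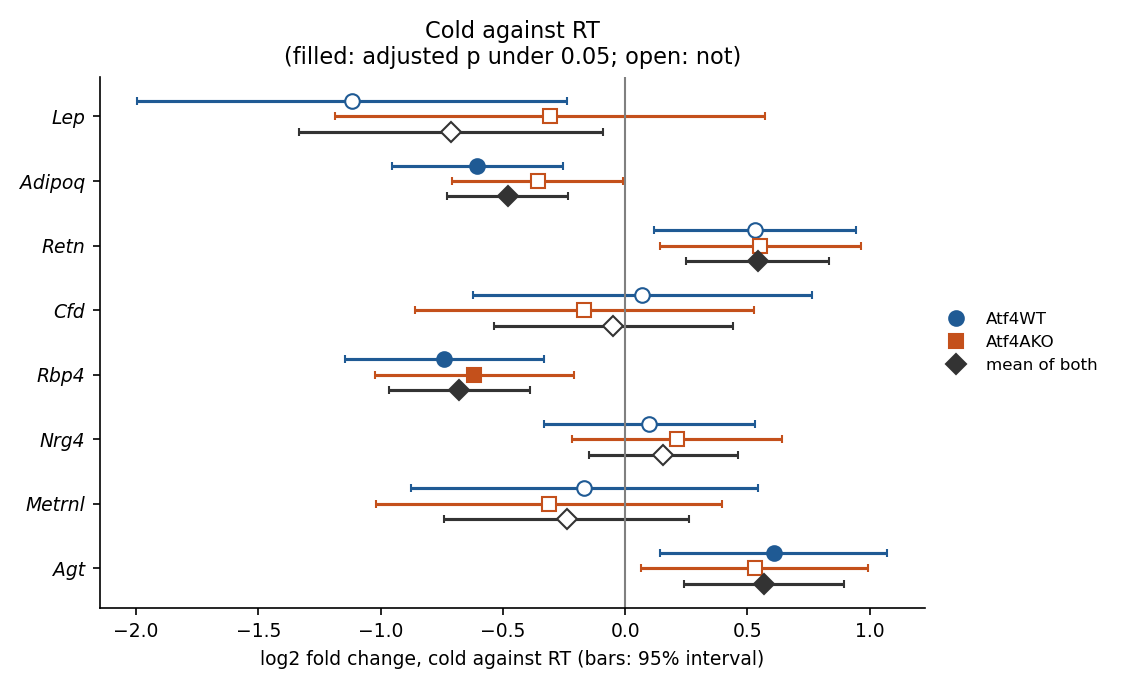
Log2 fold change of cold against RT for the 8 adipokine genes in Atf4WT mice (circles), Atf4AKO mice (squares) and their mean (diamonds), with 95% intervals and filled symbols where the adjusted p of limma is under 0.05. *Rbp4* is filled in all 3, *Adipoq* and *Agt* in Atf4WT mice and the mean, and *Retn* in the mean alone, with intervals above 0 in both genotypes.

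Ratios within a library do not depend on the scaling of the library. The level of *Retn* relative to *Adipoq* was 53.0%, 52.9% and 41.5% in Atf4WT mice at RT and 109%, 111% and 101% after cold. Atf4AKO libraries had 60.5%, 54.5% and 48.0% at RT and 104%, 79.2% and 128% after cold. The ratio was higher in every cold library than in every RT library of both genotypes, 2.19-fold in Atf4WT (log2 difference 1.13) and 1.88-fold in Atf4AKO mice (0.91). The exact permutation test, two-sided, gave p = 0.1 for each genotype, the smallest value that 3 against 3 libraries allow. This ratio was chosen after the values had been seen. The level of *Lep* relative to *Adipoq* was 24.3%, 37.0% and 16.7% at RT and 15.5%, 13.9% and 24.0% after cold in Atf4WT mice. It was 23.7%, 20.4% and 9.36% at RT and 15.8%, 22.2% and 14.3% after cold in Atf4AKO mice. The groups overlapped in both genotypes, with log2 differences of -0.51 (exact p = 0.2) and 0.05 (exact p = 0.9), and no difference in this ratio was detectable with 3 libraries per group.

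**Figure D4:**
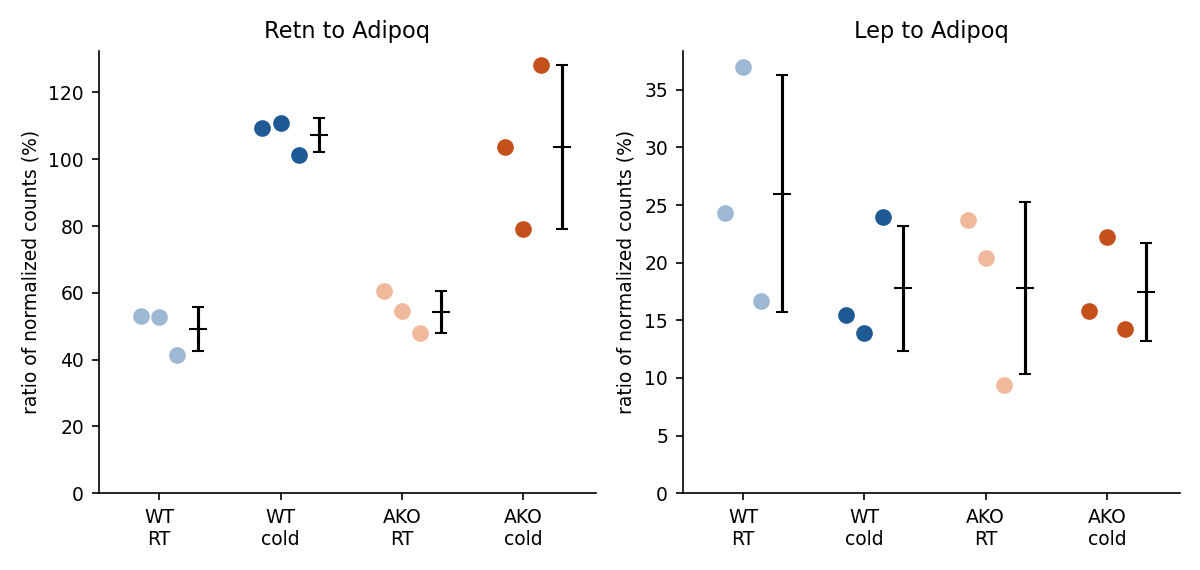
Normalized count of *Retn* (left) and *Lep* (right) as a percentage of that of *Adipoq* in each library, by group (points are libraries, and the black mark and bar the mean and SD of 3). The *Retn* ratio lies between 41.5% and 60.5% at RT and between 79.2% and 128% after cold, while the *Lep* ratio overlaps between RT and cold.

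The question of the genotype comparison is whether loss of ATF4 in adipocytes goes with other adipokine levels. None of the 8 genes was called between Atf4AKO and Atf4WT mice, either after cold (background 0.0298%) or at RT (background 0.00746%). None passed the threshold of the study either, where 6.40% of tested genes did after cold and 0.463% at RT. The libraries of the genotypes overlapped for all 8 genes, where 16.5% of tested genes did not overlap after cold and 6.30% at RT. At an unadjusted p under 0.05 the count was 0 of 8 in limma (background 11.7% after cold and 1.53% at RT), and edgeR and DESeq2 called 0 of 8 in either comparison. *Adipoq*, the gene whose promoter drives Cre, had a log2 fold change of 0.01 (95% interval -0.34 to 0.36) at RT and 0.26 (-0.09 to 0.61) after cold. *Lep* had -0.56 (-1.44 to 0.31) at RT and 0.25 (-0.63 to 1.12) after cold, and *Cfd* 0.39 (-0.30 to 1.09) and 0.16 (-0.53 to 0.85). For *Rbp4* the values were -0.03 (-0.43 to 0.38) and 0.10 (-0.31 to 0.50), and for *Retn* 0.16 (-0.25 to 0.57) and 0.18 (-0.23 to 0.60). *Agt* had 0.18 (-0.28 to 0.64) and 0.10 (-0.36 to 0.56), *Nrg4* 0.03 (-0.40 to 0.46) and 0.15 (-0.28 to 0.58), and *Metrnl* 0.23 (-0.48 to 0.94) and 0.08 (-0.62 to 0.79). The intervals of *Lep*, *Cfd* and *Metrnl* reach beyond a 1.5-fold difference at both temperatures. Those of *Adipoq* and *Retn* do so after cold, and that of *Agt* at RT. With the lymphocyte covariate the values after cold were -0.88 for *Lep*, -0.17 for *Adipoq*, -0.45 for *Retn* and -0.44 for *Rbp4*. They were -0.44 for *Nrg4*, -0.42 for *Metrnl*, 0.08 for *Cfd* and 0.001 for *Agt*. The lymphocyte marker level after cold was 6.8, 8.9 and 9.3 in Atf4WT and 4.9, 3.3 and 3.9 in Atf4AKO libraries. Its effect and that of genotype after cold therefore cannot be told apart.

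**Figure D5:**
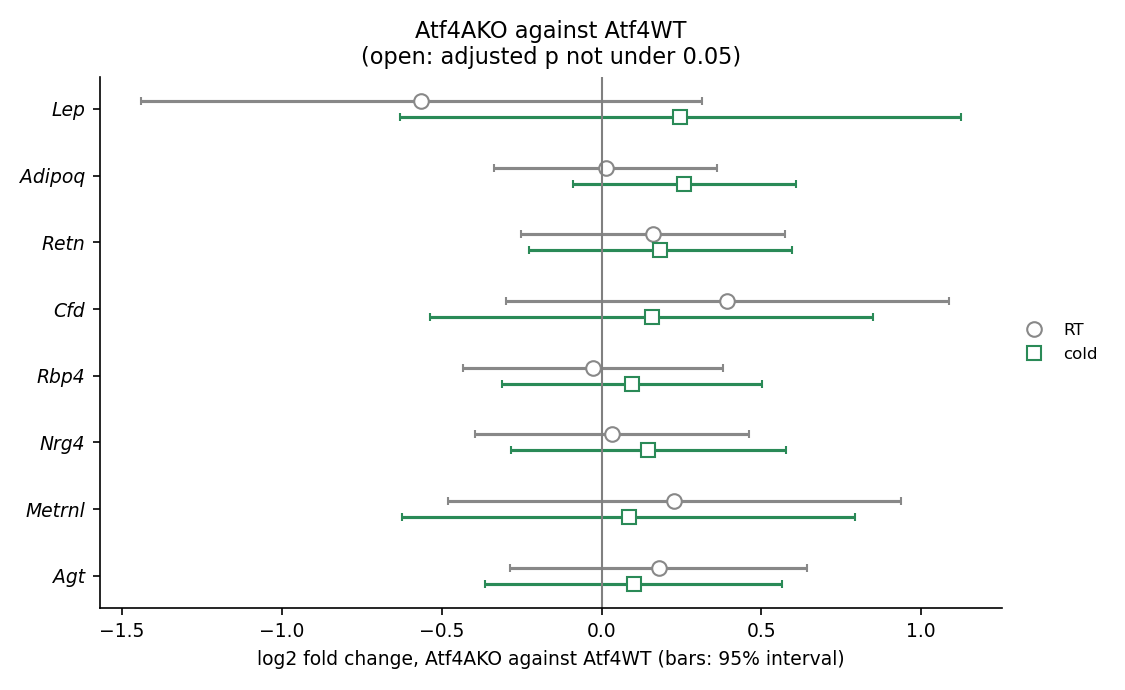
Log2 fold change of Atf4AKO against Atf4WT for the 8 adipokine genes at RT (circles) and after cold (squares), with 95% intervals. All intervals include 0, and those of *Lep* are widest.

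The cold responses of the genotypes were compared directly by the difference of their log2 fold changes. None of the 8 genes was called by limma (background 0%, 0 of 13404 genes), edgeR or DESeq2, none had an unadjusted p under 0.05 (background 6.92%), and none passed the threshold of the study (background 4.63%). *Lep* had the greatest difference, 0.81 (95% interval -0.43 to 2.05, adjusted p = 0.969), with a response of -1.12 in Atf4WT and -0.31 in Atf4AKO mice. This difference of *Lep* was 0.40 without replicate 2 of the Atf4AKO RT group and 0.52 without replicate 1 of the Atf4AKO cold group. It was 0.49 without replicate 1 of the Atf4WT RT group and -0.28 with the lymphocyte covariate. Other alternatives enlarged it, to 1.15 without replicate 2 of the Atf4WT RT group, 1.05 without replicate 1 of the Atf4AKO RT group and 1.01 without replicate 2 of the Atf4AKO cold group. It ranged from -0.28 to 1.30 and was not called under any of the 24 alternatives. For *Adipoq* it was 0.25 (-0.25 to 0.74), with a call by limma in Atf4WT mice and by DESeq2 in both genotypes. The values of *Retn* (0.02, -0.56 to 0.61), *Agt* (-0.08, -0.73 to 0.58) and *Rbp4* (0.12, -0.45 to 0.70) were nearer to 0, and those of *Nrg4*, *Metrnl* and *Cfd* were 0.11, -0.14 and -0.24. With the lymphocyte covariate the differences were -0.17 for *Adipoq*, -0.59 for *Retn*, -0.17 for *Agt* and -0.39 for *Rbp4*. They were -0.46 for *Nrg4*, -0.63 for *Metrnl* and -0.31 for *Cfd*.

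Receptors, binding partners and processing enzymes of these proteins were described from a list of 33 genes, of which 27 are listed and 25 were tested. In Atf4WT mice 2 rose (background 17.0%) and 4 fell (14.9%) after cold, and in Atf4AKO mice 1 rose (14.8%) and 4 fell (11.0%). The median log2 fold changes were -0.17 and -0.25, against 0.0026 and -0.03 over all tested genes. *Enpep*, aminopeptidase A, which cleaves angiotensin II, fell in both genotypes (-0.80 ± 0.19, adjusted p = 0.00949, and -0.78 ± 0.19, adjusted p = 0.0129). *Cfb*, complement factor B, the substrate of adipsin, fell in both (-0.59 ± 0.15, adjusted p = 0.0109, and -0.55 ± 0.15, adjusted p = 0.0183), while *Cfd* itself was not called. *Masp1*, whose product MASP-3 activates pro-factor D, rose in Atf4WT mice (1.59 ± 0.45, adjusted p = 0.0195) and had 1.06 ± 0.45 (adjusted p = 0.104) in Atf4AKO mice.

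Of relatives of the 8 genes, such as the C1q/TNF-related proteins that share the fold of adiponectin, 10 were tested. In Atf4WT mice 1 rose (background 17.0%) and 2 fell (14.9%). In Atf4AKO mice 1 rose (14.8%) and 3 fell (11.0%). The median log2 fold changes were -0.65 and -0.93. *C1qtnf9* fell in Atf4WT mice (-0.69 ± 0.15, adjusted p = 0.00497) and had -0.22 in Atf4AKO mice (adjusted p = 0.293). *C1qtnf7* fell in both genotypes (-1.89 ± 0.51, adjusted p = 0.0162, and -1.73 ± 0.51, adjusted p = 0.0278), and *C1qtnf12* rose in both (0.42 ± 0.13, adjusted p = 0.0284, and 0.41 ± 0.13, adjusted p = 0.036). *Retnla*, a resistin-like gene that alternatively activated macrophages express, fell in Atf4AKO mice (-2.24 ± 0.61, adjusted p = 0.021) and had -1.55 ± 0.61 in Atf4WT mice (adjusted p = 0.0736), opposite in sign to *Retn*. The summed macrophage marker level was 5882 to 36869 after cold and 26380 to 48436 at RT, and its part in these values was not tested.

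Of 22 tested genes for other secreted factors of adipose tissue, 1 rose (background 17.0%) and 5 fell (14.9%) in Atf4WT mice. In Atf4AKO mice 3 rose (14.8%) and 4 fell (11.0%). *Sparc*, a matrix protein, fell in both (-1.08 ± 0.15, adjusted p = 0.000673, and -0.79 ± 0.15, adjusted p = 0.00418), as did *Rarres2*, the chemerin gene (-0.83 ± 0.15, adjusted p = 0.00209, and -0.67 ± 0.15, adjusted p = 0.00711). *Sfrp5*, a secreted Wnt inhibitor, fell in Atf4WT mice (-2.19 ± 0.34, adjusted p = 0.00107) and had -0.67 ± 0.34 in Atf4AKO mice (adjusted p = 0.175). *Fgf21*, an endocrine fibroblast growth factor and known ATF4 target, rose in both (2.63 ± 0.54, adjusted p = 0.00457, and 1.80 ± 0.54, adjusted p = 0.0318). The fall of fibroblast and preadipocyte markers moved with the fall of *Sparc*, and its part was not tested.

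Of 7 transcription factors of adipocyte differentiation, 2 rose and none fell in each genotype. The background was 17.0% higher and 14.9% lower in Atf4WT mice, and 14.8% and 11.0% in Atf4AKO mice. *Cebpb*, a C/EBP factor induced by cyclic AMP, rose in both (0.95 ± 0.21, adjusted p = 0.00628, and 0.79 ± 0.21, adjusted p = 0.0183), as did *Nr1h3*, the gene of LXRα (0.45 ± 0.12, adjusted p = 0.0187, and 0.47 ± 0.12, adjusted p = 0.0194). *Cebpd* and *Srebf1* had -0.63 (adjusted p = 0.185) and 0.35 (adjusted p = 0.245) in Atf4WT mice. Of the 64 tested genes of these 4 lists, 0 were called by limma, edgeR or DESeq2 between the genotypes or in the difference of cold responses, and limma's unadjusted p was under 0.05 for 5 after cold (background 11.7%), 0 at RT (1.53%) and 2 in the difference (6.92%). Of 10 white adipocyte markers, whose median log2 fold change was -0.16, *Gpd1* rose (1.16 ± 0.29, adjusted p = 0.0109) and *Plin4* fell (-0.71 ± 0.22, adjusted p = 0.0285) in Atf4WT mice, and the mean log2 level of the list was 16.1 ± 0.181 at RT and 16.1 ± 0.225 after cold.

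The genes most like 3 of the members were found by the root-mean-square difference of their log2 profiles over the 12 libraries, each centred on its mean, among 11841 candidates. For *Adipoq*, whose own profile has a root mean square of 0.287, these were *Nicn1* (0.082), *Ulk2* (0.092) and *Creld1* (0.093). For *Rbp4* (0.399) they were *Tspan17* (0.091), *B4gat1* (0.1) and *Mrps6* (0.104). For *Agt* (0.379) they were *Gapdh* (0.193), *Eef1akmt4* (0.198) and *Pfdn6* (0.198), with larger differences relative to its own profile.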

How the data were processed

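Values came from polyadenylated, strand-specific RNA-seq of iWAT from 12 mice. The authors used SOAPnuke to filter, STAR to align to the mm10 genome, featureCounts to count unique alignments per gene and pyDESeq2 to normalize. The deposited values are thus a normalized signal, the reads of a gene divided by the size factor of the library. The versions of these tools and the strand setting are not given in the sources used here. Dividing each library by its smallest value gave whole reads (100.0% within 0.01 reads), and no listed gene (of 14159) had fewer than 1 read in any library.

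limma 3.58.1 in R 4.3.3 was fitted to log2(normalized count + 1) of the 13404 genes whose mean reached 10, with 4 group means, empirical Bayes with a variance trend and Benjamini-Hochberg adjustment over all tested genes. Fold changes are on this scale. "Rose" and "fell" mean an adjusted p under 0.05. Tests on recovered reads with edgeR 4.0.16 and DESeq2 1.42.0, other scalings, filters, pseudocounts and covariates, a replicate block, and leaving out each library were alternatives. Ratios were compared with exact permutation tests in scipy 1.17.1. The steps were tested on simulated data. Gene positions and exon lengths were from GENCODE vM21, and upstream windows from RefSeq. All members are named, and of other lists at most 4 genes, those with the smallest p in the cold comparison of Atf4WT mice. A result that this rule would name is not reported here. Likeness was given for the members called in a cold comparison of either genotype (mean of at least 50 for candidates). The members and lists were chosen with earlier results of these data known. The comparisons within a genotype and between genotypes share libraries. Counting error is small at these depths. The p-values of limma rest on the spread between the 3 replicates of a group, pooled over the 4 groups.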

Additional observations from a re-analysis of the deposited data

How the results depend on the processing

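The number of adipokine genes called depended on the test. In Atf4WT mice after cold it was 3 and became 5 with array weights, edgeR or DESeq2 and 1 with the lymphocyte marker level as a covariate, and it ranged from 2 to 4 when each library was left out. In Atf4AKO mice it was 1 and became 2 with a mean of at least 50, with libraries set to the same adipocyte marker level, with array weights or edgeR, and 3 with DESeq2 or the lymphocyte covariate. It ranged from 0 to 3 when each library was left out, and was 2 without both libraries numbered 2 of Atf4WT mice, an alternative chosen after seeing the data. For the average cold response 4 genes were called (background 44.8%). *Rbp4*, which is among the 4, and *Lep*, which is not, passed the threshold of the study. Between genotypes and for the difference of cold responses, 0 of 8 genes were called under every alternative run. The call of *Agt* in Atf4WT mice remained under 13 of 25 alternatives, that of *Adipoq* under 22 and that of *Rbp4* under 24. The cause of these changes was not tested. The share of all tested genes called under each alternative is not given here. A change in the number called is therefore not read as particular to the 8 genes.

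The replicate numbers were not taken to pair the libraries, since the correlation of deviations was over 0.1 for only 9 of 18 pairs with the same number. Over all 18 it ranged from -0.219 to 0.417, and for the 6 pairs numbered 1 from 0.181 to 0.402. With the replicate number as a block, 4 genes were called in Atf4WT and 2 in Atf4AKO mice. In Atf4WT mice the block gained *Lep* (adjusted p = 0.0262) and *Retn* (0.0393) and lost *Agt* (0.0573), and in Atf4AKO mice it gained *Retn* (0.039).

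No called value changed sign. Of 1184 alternative values of the log2 fold changes, 71 had another sign than the reported value, none of them called and 10 of them in the cold comparisons. Setting libraries to the same adipocyte marker level moved the median of all tested genes in Atf4AKO mice after cold from -0.03 to -0.20 (log2), and in the comparison of genotypes after cold from 0.05 to -0.18. With 3 libraries per group, the spread between mice and not depth limits what could be detected.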
